A study of Mus musculus with 25 samples.

Results

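The genes described here are Larp7, the gene whose span holds the miR-302 microRNA cluster on mouse chromosome 3, and 9 genes near it: Ugt8a, Camk2d, Ank2, Ap1ar, Pla2g12a, Gar1, Alpk1, Tifa and Arsj. They were chosen by name, with earlier results of these data known. Every probe of the array that the platform annotation assigned to 1 of them was read. These were 16 of the 25697 probes on the array, which name 16593 genes, and covered 9 of the 10 genes, since Alpk1 had no probe. The 25 arrays, each with RNA of 1 embryo, compared embryos lacking miR-302 (knockout, KO) with wild type (WT), all of strain B6. At embryonic day 7.5 (E7.5) whole embryos were profiled, 2 WT and 3 KO. Anterior neural tissue was profiled from 2 WT and 3 KO embryos of E8.0, from 3 WT and 3 KO of E8.5, and from 4 WT and 4 KO of E9.5. Replicate 1 of the E8.0 WT arrays was labelled as a whole embryo and entered no comparison. The labels say nothing of how the KO allele was made.

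The miR-302 cluster encodes microRNAs of the early embryo and of pluripotent stem cells, which pair through a short seed at their 5′ end with messenger RNAs and lower their output. An allele made inside a host gene can also alter the host or the genes beside it, which is the question asked of the neighbours here. The listed genes have unrelated roles. Larp7 binds the 7SK RNA, which holds a transcription elongation factor in check. Gar1 is a protein of the particles that guide pseudouridylation of RNA, Ugt8a makes the galactolipids of myelin, and Ank2 and Camk2d are a membrane skeleton adaptor and a calcium-dependent kinase subunit. Ap1ar (gadkin) links trafficking vesicles to a kinesin motor, Pla2g12a is a secreted phospholipase, Arsj is an arylsulfatase, and Alpk1 and Tifa are a kinase and its adaptor in innate immune signalling.

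In RefSeq (build GRCm38.p6), 5 microRNA hairpins, Mir302a, Mir302b, Mir302c, Mir302d and Mir367, lie within Larp7 on chromosome 3 (chr3:127545228-127545807, plus strand), whereas Larp7 is on the minus strand. The mature sequences of 4 of the 5 3′ arms are shown, all but miR-302a-3p, because they are products of the locus that the KO label names, with the seed (bases 2 to 8) in capitals.
mmu-miR-302b-3p: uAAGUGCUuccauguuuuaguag
mmu-miR-302d-3p: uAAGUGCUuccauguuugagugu
mmu-miR-302c-3p: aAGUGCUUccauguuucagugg
mmu-miR-367-3p: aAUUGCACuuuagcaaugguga
Among the 4 shown, the seeds of miR-302b-3p and miR-302d-3p were identical, that of miR-302c-3p was different in this annotation, and miR-367-3p had a seed of its own. No probe was annotated to these microRNAs, and the array therefore gave no direct check of the genotype labels.

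The median raw signal of an array was between 106.5 and 148 before E9.5 and between 222.1 and 262.1 at E9.5. Within a group, Pearson's r between arrays, across probes, was 0.955 to 0.995. The columns of the 3 E8.0 WT arrays go against each other in the deposited raw table. There each signal column ranked the probes as another array's detection p-values did, with a rank correlation of 0.974 to 0.978, against 0.881 to 0.883 with the p-values under its own name. The other 22 signal columns matched their own p-values at 0.959 to 0.985. The detection p-values carried the same array names as the authors' processed table. Under those names the array labelled whole embryo is the signal column headed replicate 2. In what follows each signal is read with the p-value it matches and under the name of its signal column, and E8.0 results are also given under the names of the processed table. The array whose signal column is named whole embryo had a mean log2 signal of 6.04 over the visceral endoderm and yolk sac markers and 6.03 over the heart and muscle markers. The E8.0 neural WT arrays were at 6.06 and 7.5 and at 6.40 and 8.87. Over the trophoblast and placenta markers the order was the other way, with 8.27 on the array named whole embryo and 7.66 and 7.19 on the neural WT arrays. Anterior neural markers were between 7.34 and 7.45 on all 3, and KO replicate 1 of E8.0 was the lowest E8.0 array for them at 6.32.

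A probe was called detected on an array where its detection p was under 0.05, and it was tested where that held on at least 3 arrays. Of the 16 probes, 8 passed this filter, covering Ugt8a, Camk2d, Ank2, Ap1ar, Pla2g12a and Gar1. The Larp7 probe was detected on 0 of 25 arrays, in either genotype and at every stage, with a lowest detection p of 0.183. Its normalized log2 signal lay between 4.41 and 5.07. A change of the host gene was therefore not measurable with this probe. Both Arsj probes were detected on 0 arrays (lowest p 0.207 and 0.208), and the Tifa probe on 1, an E8.5 WT array. The other 3 Camk2d probes, annotated to other transcripts than the tested one, were detected on 1, 0 and 1 arrays. The second Pla2g12a probe, for another transcript, was detected on 0. Across the whole array 33.9% of probes were detected on 0 arrays and 34.5% on all of them. The probes of Gar1, Ap1ar and Pla2g12a and 1 Ank2 probe were detected on all 25 arrays. The 8 tested probes therefore stand for the members with a probe above background on enough arrays, and not for all members. Camk2d and Pla2g12a each had a probe that passed, while their probes for other transcripts did not. An undetected probe, such as that of Larp7, does not by itself show that its gene is silent or scarce. Ank2 ILMN_3079138 passed the filter only through 3 E9.5 KO arrays.

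**Figure D1:**
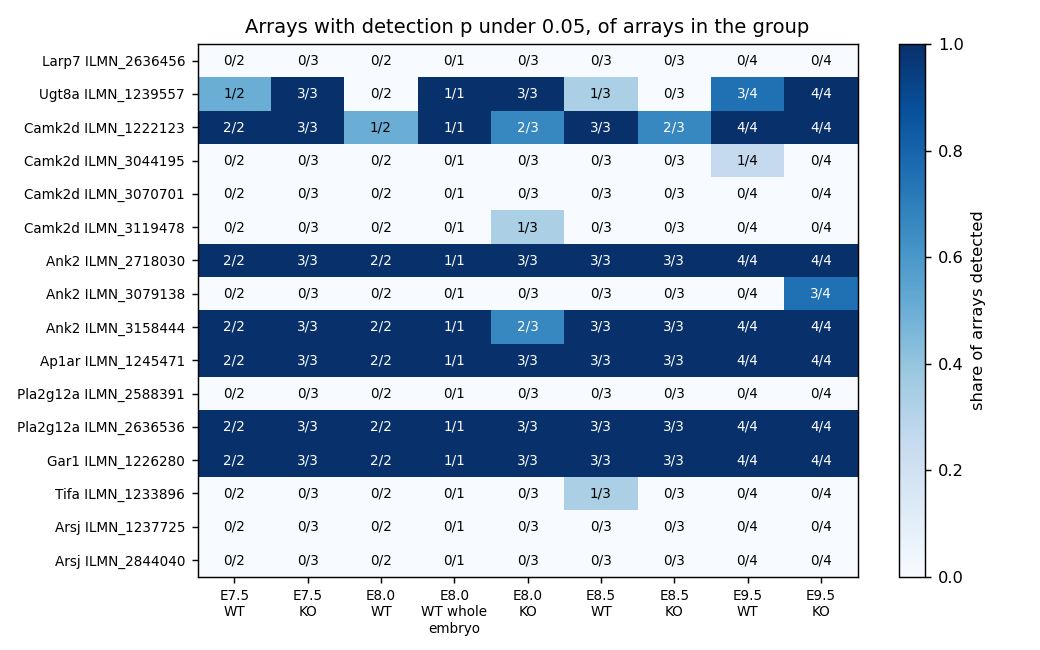
Number of arrays with a detection p under 0.05 for each of the 16 probes (rows, gene and probe name) in each group (columns), with shading for the share of the group's arrays. The rows of Larp7 and Arsj are at 0 in every group, those of Gar1, Ap1ar and 1 Ank2 probe are full, and Ugt8a was detected on 3 of 3 KO arrays at E7.5 and at E8.0.

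Whether loss of miR-302 went with altered output of the neighbouring genes was asked at each stage. Ugt8a rose in the E7.5 KO embryos and was the 1 member called there, of 8 tested probes. Across all 15030 tested probes 0.186% were called at E7.5 (limma, adjusted p under 0.05). Since the members were chosen with earlier results of these data known, that share is given for scale and does not test the set. In the later groups 0 member probes were called, beside 1.74% of all probes at E8.0, 4.34% at E8.5 and 1.6% at E9.5. At an unadjusted p under 0.05 there were 2, 3, 1 and 3 member probes from E7.5 to E9.5. No share of all probes was taken at that threshold, so these counts have no background and are not read further. Of the 2 at E7.5, Ank2 ILMN_3079138 was above background in neither group. The median KO minus WT difference of the 8 probes was -0.08, -0.16, -0.13 and 0.24 on the log2 scale at the successive stages, against -0.01, 0.01, -0.03 and 0 for all probes. Of the 8, 3 are Ank2 probes. The E9.5 median includes ILMN_3079138 (0.29), which passed the filter only through E9.5 KO arrays, so that median is not read as a shift. For the KO effect averaged over the 4 stages 1 member, Ugt8a, was called, beside 3.29% of all probes. For a KO effect that differed among stages (an F test) 1 member was called, Ugt8a again, beside 4.59% of all probes.

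**Figure D2:**
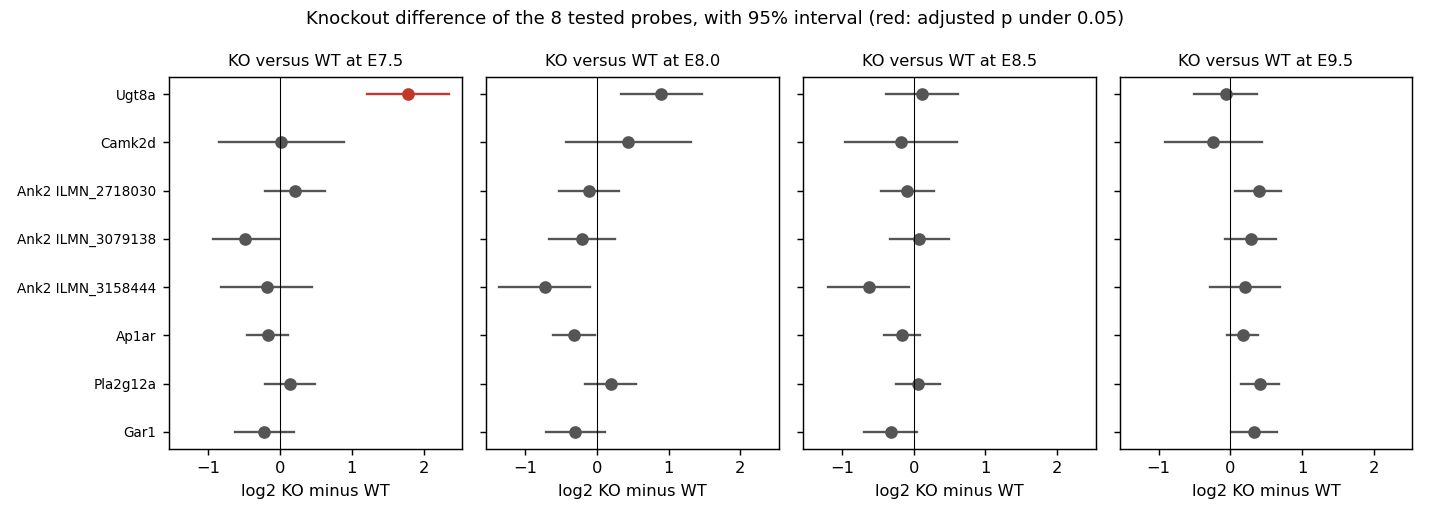
KO minus WT difference (horizontal axis, log2) of the 8 tested probes at each of 4 stages, with the 95% interval from the limma fit. Ugt8a at E7.5 (1.78) is the only point drawn in red, for an adjusted p under 0.05, and its difference lies nearer 0 at E8.5 and E9.5. Ank2 ILMN_3079138 is drawn but not read at E9.5, since it passed the filter only through E9.5 KO arrays.

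Ugt8a, which transfers galactose to ceramide, had normalized log2 signals of 5.46 and 6.12 in the E7.5 WT embryos and 8.17, 7.5 and 7.06 in the KO embryos. The groups did not overlap, and the probe was detected on 1 of 2 WT and 3 of 3 KO arrays. The difference was 1.78 (SE 0.272, adjusted p = 0.00548 by limma), or 3.44-fold. At E8.0 the WT values were 5.19 and 5.42, both not well above background, and the KO values 6.26, 6.15 and 6.20. The groups again did not overlap, and KO was at least 1.38-fold higher, but the difference of 0.90 (SE 0.272) did not pass (adjusted p = 0.0846). The E8.0 WT array labelled whole embryo was at 5.92. Under the array names of the authors' processed table the E8.0 difference was 0.53 (SE 0.28, adjusted p = 0.399). At E8.5 the WT values were 5.06, 5.72 and 5.31 and the KO values 5.63, 5.35 and 5.45. These overlapped, with a difference of 0.12 (SE 0.243, adjusted p = 0.826), and 0 of 3 KO arrays detected the probe. At E9.5 WT was at 5.30, 5.65, 6.01 and 5.68 and KO at 5.40, 5.72, 5.42 and 5.84. These also overlapped (difference -0.07, SE 0.211, 95% interval -0.51 to 0.37, adjusted p = 0.94).

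**Figure D3:**
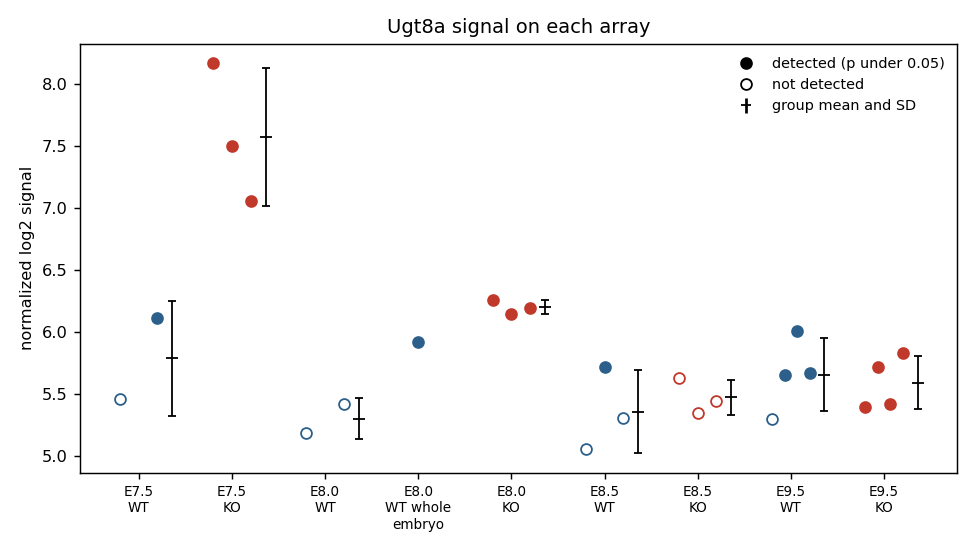
Normalized log2 signal of Ugt8a (vertical axis) on each of 25 arrays by group, with filled points where the probe was detected and the group mean and SD in black. The 3 KO embryos of E7.5, at 7.06 to 8.17, lie above every other array.

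The KO effect on Ugt8a differed among the stages (F test, adjusted p = 0.0179 by limma). Its effect at E9.5 was lower than at E7.5 by a log2 difference of -1.85 (SE 0.344, adjusted p = 0.0422), whereas the change from E7.5 to E8.5 was -1.67 (SE 0.365, adjusted p = 0.0862) and that to E8.0 -0.89 (SE 0.385, adjusted p = 0.456). Averaged over the 4 stages, KO exceeded WT by 0.68 (SE 0.125, adjusted p = 0.00662). The stages also differ in tissue, so stage and tissue cannot be told apart between E7.5 and the later samples. Within plate 1, which held all E7.5 arrays but KO replicate 1, the E7.5 difference was 1.49 (SE 0.268, adjusted p = 0.0274). Plate entered as a covariate gave 1.62 (adjusted p = 0.0142). Without WT replicate 1 the E7.5 difference was 1.46 (adjusted p = 0.0557), and in the authors' processed values it was 0.53 (adjusted p = 0.0519). Markers of other tissues moved with it or stood apart on single arrays. Over 6 trophoblast and placenta markers the mean log2 signal was 6.93 and 6.94 in the E7.5 WT and 8.58, 7.83 and 7.21 in the KO, in the same order of KO embryos as Ugt8a. In these KO embryos 5 of the 7 listed markers were detected, and Tpbpa and Elf5 were not. At E8.0 that mean was 7.66 and 7.19 in WT and 7.84, 8.63 and 7.91 in KO. There the order differed, since KO replicate 2 was the highest KO array for these markers and the lowest for Ugt8a (6.15). Over the neuronal markers the E7.5 WT means were 6.01 and 5.91 and the KO means 6.21, 6.09 and 6.40, with 1 of 6 markers detected in WT and 3 of 6 in KO (Tubb3, Elavl4 and Neurod1 in neither). KO replicate 1, the highest for Ugt8a, stood apart for the primitive blood markers (8.23, against 5.04 to 5.84 on the other E7.5 arrays, with Hbb-y detected in neither group) and for the endothelial markers (6.98 against 5.68 to 6.09, with Kdr, Tie1 and Emcn detected in neither group). It was also the highest for heart and muscle markers (8.09 against 6.71 to 7.46). Head mesenchyme and neural crest markers were lower in the KO embryos (7.20 to 7.39) than in WT (7.46 and 7.99), with Foxc2 not detected in either. Without KO replicate 1 the Ugt8a difference was 1.49 (SE 0.254, adjusted p = 0.0236). The part of these cells in the Ugt8a result was not tested, and in whole tissue more cells of a type and more RNA per cell cannot be told apart.

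The 250 bases before the annotated start of Ugt8a (RefSeq, GRCm38.p6, chr3:125938653-125938902, minus strand) are shown because Ugt8a was the listed gene that passed in KO. Matches to the GC box GGGCGG on either strand are in capitals, 2 of the 3 overlapping in 1 run.
Ugt8a: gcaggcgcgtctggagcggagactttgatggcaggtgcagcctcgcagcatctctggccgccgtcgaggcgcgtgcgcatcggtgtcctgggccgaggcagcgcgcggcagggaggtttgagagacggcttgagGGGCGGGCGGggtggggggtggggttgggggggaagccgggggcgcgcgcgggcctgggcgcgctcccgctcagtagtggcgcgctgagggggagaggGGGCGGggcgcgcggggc
Of these bases 76.8% were G or C, a share that 2.82% of 32851 RefSeq promoters of this length reached, against a median of 52.4%. A GC box was present in 32.7% of those promoters. The TATA box TATAAA, on either strand, was not in this window and was in 12.4% of all. All 10 genes matched an entry, with 14 promoters between them. Those of Camk2d and Arsj also held 3 GC boxes and no TATA box, and that of Larp7 held 2 GC boxes and no TATA box. Those of the other members held 0 GC boxes.

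Camk2d, the delta subunit of calcium/calmodulin-dependent kinase II, did not pass at any stage. The probe detected in all groups was at 6.05 and 5.41 in E8.0 WT and at 4.85, 6.92 and 6.74 in E8.0 KO. KO replicate 1 was thus the lowest of 25 arrays, and the other 2 KO arrays were above both WT arrays. The difference was 0.44 (SE 0.416, adjusted p = 0.587). Within plate 1, which leaves out KO replicate 1, it was 1.10 (SE 0.246, adjusted p = 0.0409), and the processed table's names gave 0.17 (SE 0.441, adjusted p = 0.893). At the other stages the difference ran from -0.24 to 0.02, with an E9.5 interval of -0.91 to 0.44. The E9.5 arrays lay closest together, at 5.93 to 6.19 in WT and 5.68 to 5.95 in KO.

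Ank2 encodes ankyrin-B, which ties membrane proteins to the spectrin skeleton, and the 2 probes detected on nearly every array did not pass in KO against WT at any stage. Values of the 3 tested probes correlated at 0.30 to 0.51 over the 25 arrays. ILMN_3158444 was at 6.81 and 7.33 in E8.0 WT and at 5.55, 6.51 and 6.97 in KO, and at 7.07, 6.71 and 7.29 in E8.5 WT and 6.59, 6.07 and 6.54 in KO. The groups overlapped at E8.0 and not at E8.5. The differences were -0.73 (SE 0.301, adjusted p = 0.178) and -0.63 (SE 0.269, adjusted p = 0.177), and at E9.5 the value was 0.20 (SE 0.233, adjusted p = 0.762). Without KO replicate 3 the E8.0 difference was -1.04 (adjusted p = 0.0316), and under the names of the processed table -0.75 (SE 0.299, adjusted p = 0.27). KO replicate 1 of E8.0, at 5.55, was the 1 array of 25 that did not detect this probe. ILMN_2718030 was at 7.99, 7.67, 7.49 and 7.74 in E9.5 WT and at 8.33, 7.94, 8.30 and 7.88 in KO, which overlapped (0.39, SE 0.155, adjusted p = 0.21). Its E8.0 difference was -0.11 (adjusted p = 0.8), or -0.35 (adjusted p = 0.487) under the names of the processed table. ILMN_3079138 was detected on 3 of 25 arrays, all of them E9.5 KO, where the values were 5.57, 5.48, 5.33 and 5.28 against 5.20, 5.28, 5.26 and 4.77 in WT. The groups met, and since the probe entered the tests only through these KO arrays, no fold or test is read from that comparison.

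Ap1ar, a binding partner of the AP-1 adaptor complex, was at 12.39 and 12.38 in E8.0 WT and at 12.06, 11.99 and 12.16 in KO. The groups did not overlap, and the difference of -0.32 (SE 0.137) did not pass (adjusted p = 0.194), nor did that of -0.30 under the names of the processed table (SE 0.139, adjusted p = 0.347). Its differences at the other stages ran from -0.17 to 0.17. Gar1, a protein of the H/ACA particles, was at 13.40, 13.36 and 13.41 in E8.5 WT and at 13.23, 12.92 and 13.05 in KO. These did not overlap (-0.32, SE 0.176, adjusted p = 0.292). At E8.0 WT was at 13.35 and 13.26 and KO at 12.86, 12.85 and 13.31, with overlap (-0.30, adjusted p = 0.398, or -0.22, adjusted p = 0.63, under the names of the processed table). At E9.5 Gar1 was at 13.01, 12.85, 12.61 and 12.41 in WT and at 13.25, 13.00, 12.98 and 12.97 in KO. These overlapped, and the difference was of the other sign (0.33, SE 0.152, adjusted p = 0.292). Pla2g12a, a member of the secreted phospholipase A2 family, was at 10.09, 10.09, 10.25 and 9.96 in E9.5 WT and at 10.40, 10.41, 10.93 and 10.28 in KO. All 4 KO arrays were above all 4 WT arrays, with a difference of 0.41 (SE 0.13, 95% interval 0.14 to 0.68) that did not pass (adjusted p = 0.12). Its E8.0 difference was 0.19 (adjusted p = 0.54), or 0.23 (adjusted p = 0.549) under the names of the processed table. The F test of the KO effect among stages did not pass for Gar1 (adjusted p = 0.16), Ap1ar (0.193) or Pla2g12a (0.548).

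The design also follows each genotype through neurulation. From E8.0 to E8.5, 0 member probes were called in WT (0.0333% of all probes) and 0 in KO (2.75%). At an unadjusted p under 0.05 there were 0 and 2, again without a share of all probes to set them against. From E8.5 to E9.5 Ap1ar, Pla2g12a and Gar1 fell in WT, 3 of 8 member probes beside 39.7% of all probes. In KO, Ap1ar and Pla2g12a fell and 2 Ank2 probes rose, 4 of 8 beside 33.4%. Member shares are near those backgrounds. All E9.5 arrays were on plate 4, which held no other stage, so plate and stage cannot be told apart in these changes.

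In WT, Pla2g12a was at 11.04, 11.25 and 10.95 at E8.5 and, as given above, at 9.96 to 10.25 at E9.5. No E9.5 array reached an E8.5 array, and the difference was -0.99 (SE 0.14, adjusted p = 1.92e-05), or 1.98-fold lower at E9.5. In KO the E8.5 values were 11.15, 11.17 and 11.12, and the difference was -0.64 (SE 0.14, adjusted p = 0.00183). Ap1ar was at 12.25, 12.55 and 12.47 in E8.5 WT and at 11.77, 11.74, 11.72 and 11.51 in E9.5 WT (difference -0.74, SE 0.115, adjusted p = 4.85e-05). In KO it was at 12.25, 12.23 and 12.28 and then at 11.96, 11.81, 11.69 and 11.96 (difference -0.40, SE 0.115, adjusted p = 0.0118). Neither pair of groups overlapped. The WT and KO changes of these genes share no arrays, and the test of their difference did not pass for Pla2g12a (0.35, SE 0.198, adjusted p = 0.285) or Ap1ar (0.34, SE 0.163, adjusted p = 0.2).

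Gar1 was lower by a log2 difference of -0.66 in E9.5 WT than in E8.5 WT (SE 0.165, adjusted p = 0.00308), with no overlap, and differed by -0.01 in KO (SE 0.165, adjusted p = 0.957). The difference between these changes, 0.65 (SE 0.233), did not pass (adjusted p = 0.0878). Ank2 was higher at E9.5 than at E8.5 in KO by 0.77 for ILMN_3158444 (SE 0.252, adjusted p = 0.0235), without overlap, and by 0.50 for ILMN_2718030 (SE 0.167, adjusted p = 0.0259), with overlap. With plate as a random block, 1 of the 4 KO calls was left, that of Pla2g12a. In the authors' processed values, in which each E9.5 array has a median of 153.2 and each earlier array one of 124.5, the median of all probes was higher at E9.5 by 0.46 in WT and 0.49 in KO, and there Gar1 was at 0.002 in WT and Ap1ar at 0.315 and Pla2g12a at 0.161 in KO, each of the other sign. Relative to those medians Gar1 was at -0.46, Ap1ar at -0.48 in WT and -0.17 in KO, and Pla2g12a at -0.61 in WT and -0.33 in KO. The mean log2 signal of the primitive blood markers was 10.62 to 12.5 in E8.5 WT and 13.49 to 13.65 in E9.5 WT, and 11.74 to 12.41 and then 13.18 to 13.54 in KO, with 4 of 4 markers detected in each group. Neuronal markers were at 6.25 to 6.44 and then 7.15 to 7.38 in WT, and at 6.11 to 6.18 and then 7.18 to 7.79 in KO, Neurod1 not being detected in any of these groups. Head mesenchyme and neural crest markers were at 7.64 to 8.42 and then 9.25 to 9.41 in WT, and at 7.86 to 8.27 and then 8.87 to 9.52 in KO. Endothelial markers were at 6.49 to 7.65 and then 8.37 to 8.61 in WT, and at 6.60 to 7.33 and then 8.10 to 8.56 in KO, and Kdr was detected in none of these groups. Visceral endoderm and yolk sac markers were lower, at 5.39 to 6.21 and then 4.95 to 5.14 in WT and at 5.33 to 7.16 and then 4.93 to 5.07 in KO. The part of these cells in the stage changes was not tested.

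**Figure D4:**
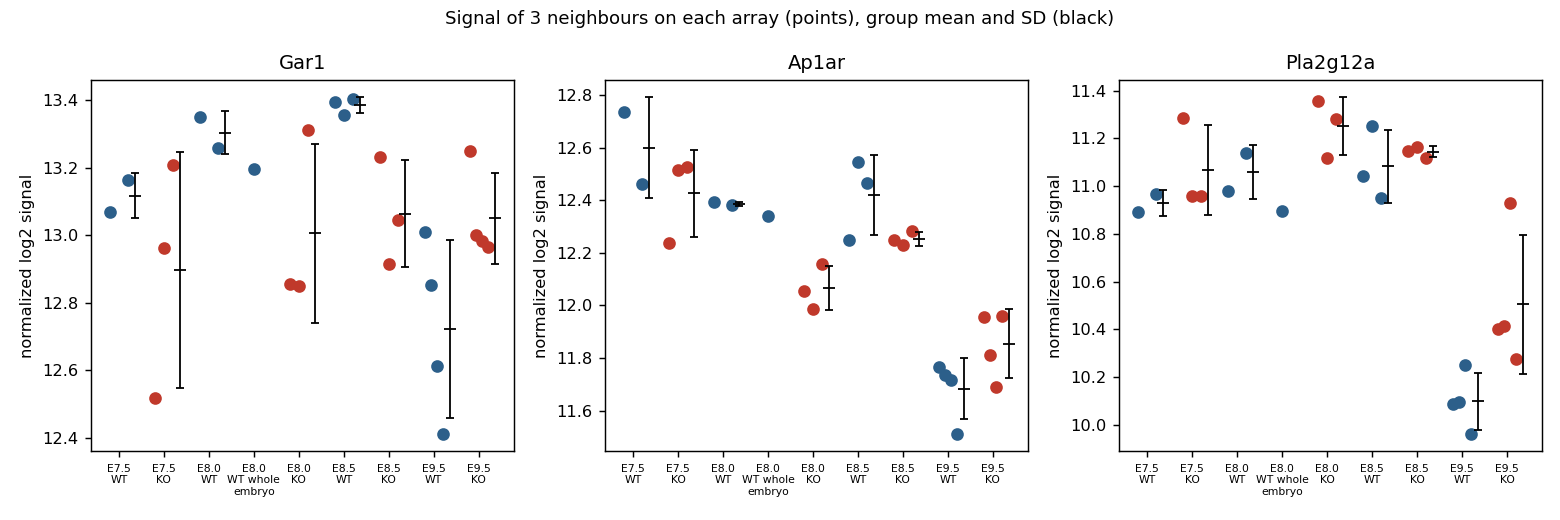
Normalized log2 signal of Gar1, Ap1ar and Pla2g12a (vertical axes, which do not start at 0) on each array by group, WT in blue and KO in red, with group means and SD in black. The E9.5 WT arrays of Ap1ar (11.51 to 11.77) and Pla2g12a (9.96 to 10.25) lie below all arrays of the earlier stages.

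To set the members beside the genes the choice left out, the 25 protein-coding genes on each side of Larp7 in RefSeq order were read. Of these 50 genes, 9 had no probe and 25 had a tested one. In this order Ank2 is the gene next to Larp7 on 1 side, followed by Camk2d, Arsj and Ugt8a. On the other side stand Zgrf1, which had no probe, then Neurog2, Alpk1, Tifa and Ap1ar, with Gar1 in position 13 and Pla2g12a in position 15. Among the 23 tested probes of 19 genes that were not members, 0 were called at E7.5 and at E8.0, 1 at E8.5, 1 at E9.5 and 1 in the mean effect, all of them 1 probe of Neurog2, a proneural transcription factor that commits progenitors to become neurons. Other probes of chromosome 3 (650) were called at 0.308%, 3.08%, 4.46% and 1.23% from E7.5 to E9.5, and those of other chromosomes (13458) at 0.178%, 1.72%, 4.38% and 1.63%.

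Neurog2 (ILMN_1213024) was at 6.26, 6.44 and 5.15 in E8.5 WT and at 7.60, 7.40 and 7.42 in KO. The groups did not overlap, and the difference was 1.52 (SE 0.28, adjusted p = 0.0061). At E9.5 it was at 7.0, 7.59, 7.11 and 6.62 in WT and at 8.41, 8.41, 8.76 and 8.48 in KO, with a difference of 1.44 (SE 0.243, adjusted p = 0.00413). This probe was detected on 0 of 5 arrays at E7.5, where Ugt8a rose. At E8.5 plate 2 held the 3 WT arrays with 1 KO array, and plate 3 held the other 2 KO arrays and nothing else. Within plate 2 the E8.5 difference was 1.65 (SE 0.402) and did not pass (adjusted p = 0.0584), nor did it with plate as a covariate (adjusted p = 0.0638) or with E8.5 fitted alone (adjusted p = 0.118). In the authors' processed values it was 0.43 (adjusted p = 0.0191). Surface ectoderm markers were higher in E8.5 KO (10.20 to 10.64) than in WT (9.78 to 10.13), with all 5 detected, and lower at E9.5 (9.93 to 10.06 against 10.08 to 10.73). Anterior neural markers were lower in E8.5 KO (7.23 to 7.60, against 7.64 to 7.88) and overlapped at E9.5 (8.05 to 8.37 against 7.49 to 8.07), with Hesx1 and Pax6 detected in none of these groups. Six3 and Lhx2 were detected in E8.5 WT and not in E8.5 KO. Neuronal markers were lower in E8.5 KO (6.11 to 6.18) than in WT (6.25 to 6.44), with Elavl4 detected in WT only and Neurod1 in neither. At E9.5 they overlapped (7.18 to 7.79 in KO, 7.15 to 7.38 in WT). The part of these marker differences in the Neurog2 values was not tested. The second Neurog2 probe did not pass at E8.5 (0.49, SE 0.359, adjusted p = 0.453) or at E9.5 (-0.12, adjusted p = 0.927). Between Larp7 and Ugt8a, the tested Ank2 and Camk2d probes did not pass at E7.5. Their intervals from the limma fit there were wide, at -0.85 to 0.89 for Camk2d. For Ank2 they were -0.82 to 0.44 (ILMN_3158444) and -0.21 to 0.62 (ILMN_2718030), and ILMN_3079138 was above background in neither E7.5 group. Arsj, which stands next to Ugt8a on that side, was not tested, since neither of its probes was detected on any array. Whether the genes between were unchanged is therefore not shown.

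**Figure D5:**
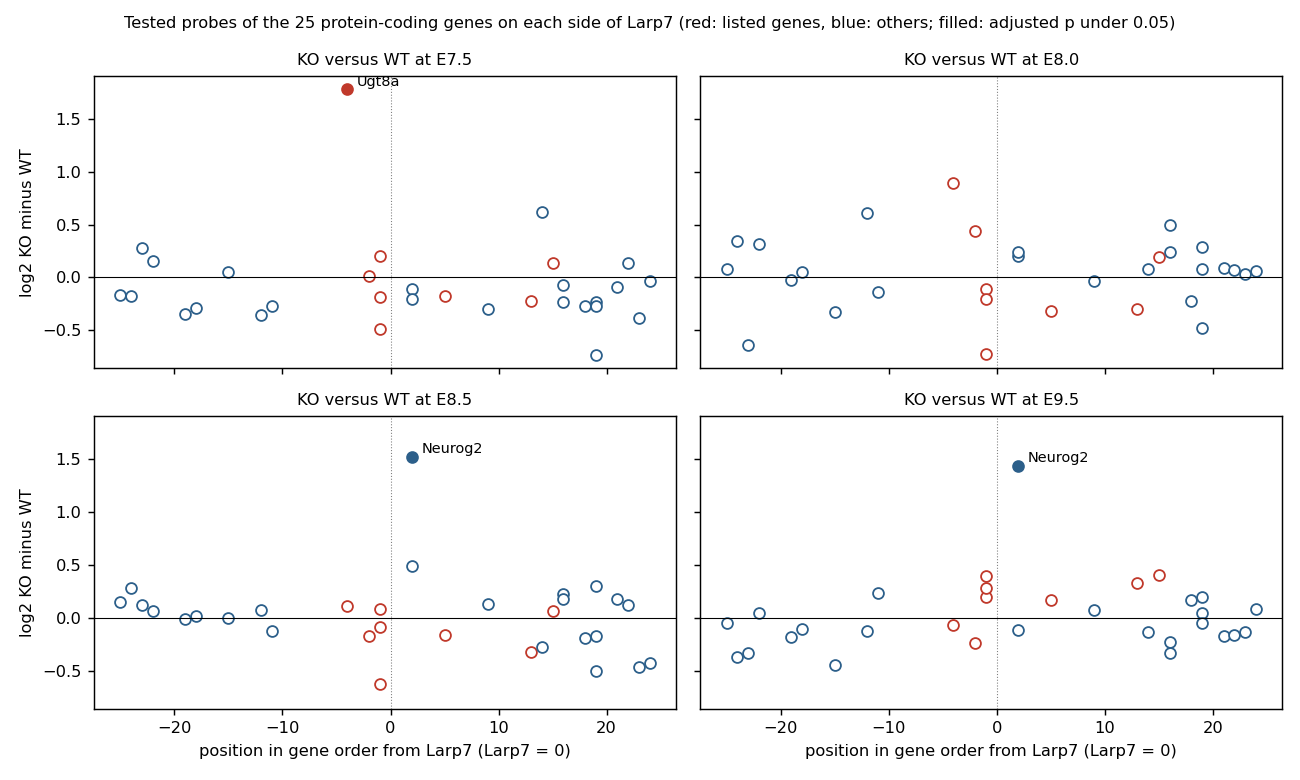
KO minus WT difference (vertical axis, log2) of tested probes of the 25 protein-coding genes on each side of Larp7, in gene order (horizontal axis), at 4 stages, with listed genes in red, others in blue and called probes filled. Ugt8a at E7.5 and Neurog2 at E8.5 and E9.5 are the filled points, on opposite sides of Larp7.

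Lists of genes grouped with the members by function were also read. Of the 10 listed genes of the 7SK and elongation factor complex, 7 were tested and 0 were called in any KO comparison. The same held for the list around Gar1, of which 7 of 10 genes were tested. That list holds H/ACA particle and telomerase genes, and also Nop56, Fbl and Ncl, which are not H/ACA proteins. In the other 4 lists 6 genes were called, and 0 of these 6 calls passed with plate as a covariate. Of 12 genes of galactolipid and sphingolipid synthesis, 10 were tested and 1 was called, the ceramide synthase Cers2 at E8.0 (0.59, SE 0.137, adjusted p = 0.0396). With plate as a covariate Cers2 was at 0.59 (adjusted p = 0.0672), and under the names of the processed table at 0.26 (adjusted p = 0.551). At E7.5, where Ugt8a rose, 0 of that list were called and its median was 0.18. Of 13 genes around Alpk1 and Tifa, 10 were tested and 1 was called, Map3k7, the TAK1 kinase, at E8.5 (0.91, SE 0.209, adjusted p = 0.0228). Within plate 2 Map3k7 was at 0.65 (SE 0.245, adjusted p = 0.216). Of 16 genes around Camk2d and Ank2, 10 were tested and 1 was called, the calmodulin gene Calm2 in the mean effect (0.30, SE 0.078, adjusted p = 0.0397). Plate as a covariate gave 0.20 for Calm2 (adjusted p = 0.246).

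Of 9 listed partners of Ap1ar, 6 were tested and 3 were called. Actr3, an Arp2/3 subunit, was at 0.74 in E8.0 KO against WT (SE 0.189, adjusted p = 0.0494), at 0.76 within plate 1 (adjusted p = 0.0712) and at 0.34 under the names of the processed table (adjusted p = 0.53). Ap1s3, a small AP-1 subunit, was at least 1.97-fold higher in E8.0 KO (1.57, SE 0.397, adjusted p = 0.0479). It was at 1.24 within plate 1 (adjusted p = 0.0712) and at 1.29 under those names (adjusted p = 0.169). Ap1b1, the large beta subunit, was at -0.45 in E8.5 KO against WT (SE 0.116, adjusted p = 0.036), and at -0.45 within plate 2 (SE 0.168, adjusted p = 0.216). Called shares of the whole array at these stages are those given above.

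The probes most like each member over the 25 arrays were read by Pearson's r, without a test. These arrays differ in stage, plate and genotype, none of which was held constant. Ap1ar was closest to Ncdn (r 0.954) and to Ap1b1 (r 0.948). Pla2g12a was closest to Reln and Nkap (both r 0.916), Gar1 to Rnps1 (r 0.929) and Midn (r 0.92). For Ank2, ILMN_3158444 was closest to Lig1 (r 0.934) and Actn4 (r 0.924), and ILMN_2718030 to Cacng4 (r 0.85). Ugt8a was closest to Cyria (r 0.844) and Serpina1d (r 0.827), and Camk2d to Gmip (r 0.805).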

How the data were processed

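Each of 25 embryo samples was read on an Illumina mouse expression bead array, and replicates are separate embryos per the series' design text. The deposited raw table holds, per the file headers, an average signal for each of 25697 probes, an intensity on a linear scale that is not normalized, and a detection p-value. The deposited series matrix holds the authors' processed intensity on a linear scale, with tools not given in the sources used here. Signal columns of 3 arrays, E8.0 WT replicates 1 to 3, did not rank with the p-values of their own names. Each of the 25 signal columns was read with the p-value column it ranked with best, a choice made after seeing the data, and the pairing as filed was run as an alternative.

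The deposited signals went through neqc (limma 3.58.1, R 4.3.3), which infers the background from detection p-values, adds an offset of 16, equalizes quantiles and returns log2 values. Probes with a detection p under 0.05 on at least 3 arrays, 15030 in all, entered 1 limma model with 9 group means (16 residual degrees of freedom, 19.4 with the prior). Tests were two-sided, with Benjamini-Hochberg adjustment within each contrast over all tested probes and calls at an adjusted p under 0.05. The script was tested on simulated data. Where every array of a group was below background, a fold is a bound against the lowest detected signal. All member probes are named. Neighbours are named where called, with Zgrf1 and Neurog2, partners where called, and the most alike probes by the highest correlations. Members and lists were chosen with earlier results of these data known. Sequences are from RefSeq tables. Arrays give no counts, so their number limits the precision.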

Additional observations from a re-analysis of the deposited data

Results flagged for a closer look

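The KO effect on Ugt8a differed among the 4 stages (F test, adjusted p = 0.0179 by limma), and so did that on Neurog2 (adjusted p = 0.034). Among single stages, Ugt8a was called at E7.5 and Neurog2 at E8.5 and E9.5. For Ugt8a the E8.0 groups did not overlap either (0.90, adjusted p = 0.0846 by limma). Only its E9.5 effect was told apart from that at E7.5. Among the 16 groups of 4 arrays examined, 8 probes in each of the 2 E9.5 groups, 2 had 1 array far from the other 3 by Dixon's criterion, which chance gives in about 1 of 20. Ank2 ILMN_3079138 had its lowest E9.5 WT array at 4.77, and 0 of the 4 E9.5 WT arrays detected this probe. Gar1 had its highest E9.5 KO array at 13.25, where the other 3 lay between 12.97 and 13.00.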

How the results depend on the processing

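Of 234 recomputed counts of member calls, 218 stayed within 1.5 times the reported one, as did the side of the threshold and the direction for 411 of 451 recomputed single values. The E7.5 count of 1 was 0 with median scaling, with the authors' processed values, with a stricter filter (detection p under 0.01 on at least 13 arrays, which removes the Ugt8a probe) and with E7.5 fitted alone, and 0 to 1 with 1 array left out (0 without E7.5 WT replicate 1). In those settings that test it, Ugt8a was at 1.49 (adjusted p = 0.0607), 0.53 (0.0519), 1.78 (0.673) and, without that replicate, 1.46 (0.0557). The mean effect count was 0 with the processed values (Ugt8a 0.16, adjusted p = 0.0718) and with the stricter filter, and the count for effects differing among stages was 0 with that filter. The E8.0 count of 0 was 1 within 1 plate (Camk2d) and 0 to 1 with 1 array left out (an Ank2 probe, without KO replicate 3). From E8.5 to E9.5 the processed values gave 5 WT and 7 KO calls, all upward, median scaling 8 KO calls (2 up, 6 down) and plate as a random block 1. With 1 array left out the KO count was 2 to 4, with 2 without E8.5 KO replicate 2 or E9.5 KO replicate 3, when neither Ank2 probe passed. Of the E9.5 against E8.5 values, Gar1 in WT (0.002) and Ap1ar (0.315) and Pla2g12a (0.161) in KO turned sign in the processed values, where each is below the median shift of all probes. The Ugt8a stage difference passed in all 37 alternatives that test it (adjusted p 0.0112 to 0.0486), and that of Neurog2 was lost in 13 of 37. With the detection p-values paired as filed, every member count was the same. Plate as a covariate was not run for E9.5 against E8.5. For the 6 called partner genes, plate as a covariate was added after seeing the data, and 0 of the 6 calls passed with it. Calls over all probes moved more. They went from 28 to between 0 and 78 at E7.5, from 262 to between 0 and 1323 at E8.0 (20 under the names of the processed table, 1323 without KO replicate 3), from 652 to between 0 and 994 at E8.5 (93 with plate as a covariate), from 240 to between 67 and 790 at E9.5, from 495 to between 208 and 1052 for the mean effect and from 690 to between 210 and 1487 for effects differing among stages. From E8.0 to E8.5 they went from 5 to between 0 and 111 in WT and from 413 to between 0 and 1286 in KO, and from E8.5 to E9.5 from 5964 to 12561 in WT and from 5013 to between 2565 and 12958 in KO. Of the E8.5 to E9.5 calls over all probes, 49.8% were upward in WT and 51.6% in KO, against 29.8% and 24.5% with median scaling and 98.1% and 99.4% in the processed values. The cause was not tested.

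The replicate numbers did not pair the samples: deviations of same-numbered KO and WT arrays correlated at -0.164 to 0.139 over 11 pairs. With a replicate block, Ugt8a at E7.5 was at 1.80 (adjusted p = 0.0213), all member counts were as reported, and the stage difference of Neurog2 was at an adjusted p of 0.0531. The E8.0 calls of all probes went from 262 to 67.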
